A study of Mus musculus with 6 samples.

Results

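The genes of glycolysis, glycogen metabolism and glucose transport were examined in C2C12 cells with and without a knockout of *Phf2*, which encodes a histone demethylase of the dimethyl mark on lysine 9 of histone H3. The set was a list of 43 gene symbols, chosen by name with earlier results of these data known. It held the enzymes from hexokinase to lactate dehydrogenase, the glycogen enzymes, and the glucose and lactate carriers. It also held the kinases that set the levels of fructose 2,6-bisphosphate and of active pyruvate dehydrogenase. All 43 symbols were found, on 44 of the 55401 rows of the count matrix, since *Aldoa* stood on 2 rows. Of these 44 rows, 42 passed the filter on low counts and were tested. *Pygl*, the liver glycogen phosphorylase, had a count of 0 in every library. *Fbp2*, the muscle fructose bisphosphatase, had a count of 0 in 5 libraries and of 4 in *Phf2* KO replicate 3.

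C2C12 cells are mouse myoblasts, an established line whose cells stop dividing and fuse once serum is lowered. Both groups were C2C12 cells transfected with a ZsGreen reporter plasmid, sorted for ZsGreen and kept as pools without cloning. The *Phf2* KO cells had received 4 pooled plasmids, each with a gRNA against *Phf2*, and the mock cells, called wild type in the labels and control here, a plasmid without such a gRNA. Each group has 3 libraries of polyadenylated RNA, taken at day 2 in medium with 2% horse serum. The study counts wells of a single experiment as n, so p-values measure the spread between wells, and effects of *Phf2* cannot be told apart from other differences between the 2 pools.

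The *Phf2* row (ENSMUSG00000038025) was read first, as a check of the labels. Its level was 102.4, 95.5 and 104.6 CPM in the control libraries and 41.1, 37.6 and 38.6 CPM in the *Phf2* KO libraries, where CPM is the TMM-scaled estimated count relative to library size. The groups did not overlap, and the log2 fold change was -1.37 (SE 0.055, edgeR adjusted p = 8.32e-09). The libraries held between 52526109 and 67502788 estimated counts, and a read pair adds about 4 of them. Of 10 markers of myotubes, 7 fell, beside 3.26% of all genes tested. All 10 lay below the control range in every *Phf2* KO library, beside 12.2% of all genes tested. The markers summed to between 9693 and 11412 CPM in the control libraries and to between 7647 and 8297 CPM in the *Phf2* KO libraries, and their median log2 fold change was -0.42. Of 10 markers of proliferating cells, 0 passed the threshold, beside 6.48% of all genes tested. Of 8 myoblast markers, 2 fell, *Cdh15* and *Des*, the latter also a myotube marker here, and 0 rose. By sign alone 4 were lower and 4 higher, with a median log2 fold change of -0.01. In every *Phf2* KO library 4 lay below the control range and 2, *Id1* and *Id3*, above it (12.2% and 12.9% of all genes). The 8 summed to between 1967 and 2127 CPM in the control libraries and to between 1720 and 1809 CPM in the *Phf2* KO libraries. *Des* was the largest part, at 1088 CPM in control and 843 CPM in *Phf2* KO cells on average. Of 7 adipocyte markers, 2 had a count of 0 in every library and 2 others could be tested. The tested 2 summed to between 4.47 and 6.52 CPM over the 6 libraries, and 0 of them passed the threshold. Of 6 osteoblast markers, the 3 tested summed to between 52.3 and 71.2 CPM. Nearly all of that sum was *Runx2*, which was higher in the *Phf2* KO cells (67.3 CPM on average, beside 54.3 CPM in control cells). The part of these markers' levels in the results below was not tested, and in bulk RNA a smaller share of myotubes cannot be told apart from less RNA of a gene in each.

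Glycolysis splits glucose into pyruvate in the cytosol and yields ATP without oxygen. Skeletal muscle holds glycogen as a store of glucose, which glycogen phosphorylase opens during contraction. Several steps are carried out by isoenzymes from different genes. One member of such a family is the form of differentiated muscle (*Pygm*, *Pgam2*, *Eno3*, *Pfkm*), and its partners are used by most other cells (*Pygb*, *Pgam1*, *Eno1*, *Pfkl*). During myogenic differentiation the muscle forms are known to rise, and the regulatory regions of several are known targets of the myogenic factors, which bind E-boxes, and of MEF2 proteins, which bind an AT-rich site.

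The windows upstream of the RefSeq transcription starts of 2 such pairs, *Pgam2* with *Pgam1* and *Pygm* with *Pygb*, are given on the strand of the gene, because these pairs showed the largest differences between isoforms below. Capitals mark matches to the MEF2 motif and to the E-box CAGCTG. Positions are from GRCm38.p6, with chr11:5803797-5804046 on the minus strand for *Pgam2*, chr19:41911621-41911870 on the plus strand for *Pgam1*, chr19:6384158-6384407 on the plus strand for *Pygm* and chr2:150786546-150786744 on the plus strand for *Pygb*. The first 3 are 250 bases long, and that of *Pygb* is printed for 199 bases because the gene model of GENCODE M21 starts further upstream.
Pgam2: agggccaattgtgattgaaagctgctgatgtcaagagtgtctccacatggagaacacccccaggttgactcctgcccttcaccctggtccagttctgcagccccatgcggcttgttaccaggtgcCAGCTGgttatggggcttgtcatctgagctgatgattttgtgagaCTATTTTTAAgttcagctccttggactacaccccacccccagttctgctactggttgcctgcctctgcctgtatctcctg
Pgam1: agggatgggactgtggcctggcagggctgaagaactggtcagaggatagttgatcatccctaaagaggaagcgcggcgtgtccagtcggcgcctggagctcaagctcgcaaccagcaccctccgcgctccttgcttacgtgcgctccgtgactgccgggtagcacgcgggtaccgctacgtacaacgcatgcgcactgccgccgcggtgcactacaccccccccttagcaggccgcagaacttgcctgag
Pygm: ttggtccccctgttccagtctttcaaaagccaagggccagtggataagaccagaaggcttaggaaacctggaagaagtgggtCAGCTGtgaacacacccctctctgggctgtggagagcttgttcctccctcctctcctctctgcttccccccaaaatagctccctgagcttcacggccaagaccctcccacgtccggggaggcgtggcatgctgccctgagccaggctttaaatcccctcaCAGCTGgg
Pygb: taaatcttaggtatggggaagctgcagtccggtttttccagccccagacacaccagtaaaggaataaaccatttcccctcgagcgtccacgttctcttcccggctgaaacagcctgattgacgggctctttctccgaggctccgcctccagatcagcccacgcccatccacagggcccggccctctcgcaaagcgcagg

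The *Pgam2* window held a MEF2 match, CTATTTTTAA from 80 to 71 bases before the start, and a CAGCTG match further upstream. The *Pygm* window held CAGCTG from 168 to 163 and from 8 to 3 bases before the start. The latter match lies inside the *Pygm* gene model of GENCODE M21, which starts at 6384399. Neither motif was in the *Pgam1* window or in the whole 250-base window of *Pygb*. Among 32851 mouse windows of 250 bases, searched on both strands, 2.92% held the MEF2 motif, 13% CAGCTG and 66.2% the general E-box CANNTG, of which CAGCTG is a special case. Windows existed for 41 of the 43 symbols, with 59 windows in all, since some symbols had several. Of these 59 windows, 2 held the MEF2 motif, 10 CAGCTG and 40 CANNTG, the counts to set beside the shares above. Counted by symbol, *Pgam2* and *Pfkfb1* were the 2 with a MEF2 match, while 10 held CAGCTG and 28 held CANNTG. The 10 with CAGCTG were *Fbp2*, *Gpi1*, *Gys1*, *Pdk1*, *Pfkfb1*, *Pgam2*, *Phka1*, *Pkm*, *Pygm* and *Ugp2*. No window of *Pfkm*, *Eno3*, *Slc16a3*, *Aldoa*, *Eno2* or *Tpi1*, which fell in the results below, held the MEF2 motif or CAGCTG. The counts by symbol cannot be compared with shares of windows. These matches are letters in a window, and binding was not measured here.

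More members fell than rose. Of the 42 rows tested, 10 fell and 2 rose at an adjusted p under 0.05, while of the 17310 genes tested 3.26% fell and 3.22% rose. The share of rows that changed was 28.6%, beside 6.48% of all genes, on a list chosen with earlier results of these data known. The median log2 fold change was -0.21 over the 42 rows and -0.000958 over all genes. By sign alone, 29 rows were lower and 13 higher. The 3 *Phf2* KO libraries lay below all 3 control libraries in 14 rows and above them in 5, beside 12.2% and 12.9% of all genes. The members that fell were *Pgam2*, *Pygm*, *Slc16a3*, *Pfkm*, *Eno2*, *Gys1*, *Eno3*, *Pkm*, *Aldoa* and *Tpi1*, and those that rose were *Pygb* and *Pdk4*. The number that fell was 5 without control replicate 2 (1.47% of all genes) and 16 without control replicate 1 (2.41% of all genes), and *Pgam2*, *Pygm*, *Pfkm*, *Gys1* and *Aldoa* passed the threshold with any single library left out.

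**Figure D1:**
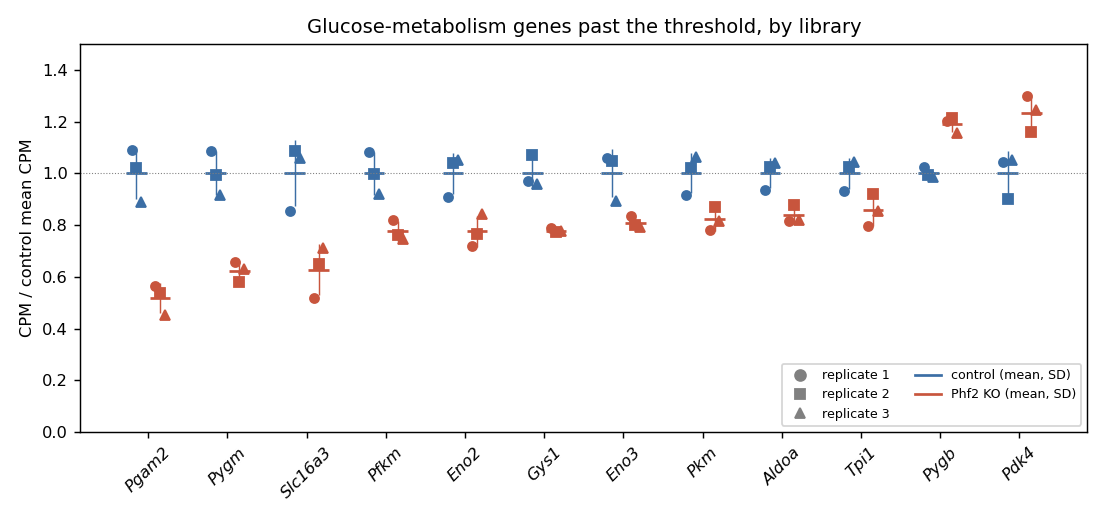
The 12 members past an adjusted p of 0.05, each library drawn as its TMM-normalized CPM over the control mean of that gene (control left, *Phf2* KO right). Horizontal lines are means, vertical lines SDs over 3 libraries. In *Pgam2* the *Phf2* KO mean was 48.2% below the control mean by the fitted fold change, in *Pygm* 37.8% below, and in none of the 12 did the groups overlap.

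Of the glycogen enzymes, *Pygm* and *Gys1* fell and *Pygb* rose, while *Ugp2*, *Gbe1* and the subunits of phosphorylase kinase did not pass the threshold. *Pygm* (ENSMUSG00000032648, chromosome 19, 6384399 to 6398459), the muscle glycogen phosphorylase, whose loss causes McArdle disease, stood at 76.0, 69.4 and 64.1 CPM in control replicates 1, 2 and 3 and at 45.8, 40.4 and 44.0 CPM in *Phf2* KO replicates 1, 2 and 3. Every *Phf2* KO library was below the lowest control library. The log2 fold change was -0.69 (SE 0.069, edgeR adjusted p = 6.03e-05). *Pygb* (ENSMUSG00000033059, chromosome 2, 150786735 to 150831758), the brain form of the same enzyme, stood at 92.3, 89.4 and 88.7 CPM in the control libraries and at 108.2, 109.6 and 104.1 CPM in the *Phf2* KO libraries. Here the knockout libraries were all above the controls, with a log2 fold change of 0.25 (SE 0.044, edgeR adjusted p = 0.00349). Both calls held with each library left out, the largest adjusted p of *Pygb* being 0.032.

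Per unit of transcript length, the 2 phosphorylases overlapped in the control libraries and were apart in the *Phf2* KO libraries. The authors' TPM of *Pygm* was 57.7, 53.2 and 49.3 in the control libraries, and that of *Pygb* 51.4, 49.7 and 50.3. The control means were 53.4 ± 4.19 TPM for *Pygm* and 50.5 ± 0.894 TPM for *Pygb* (SD, n = 3), and *Pygb* was the higher of them in control replicate 3. In the *Phf2* KO libraries *Pygm* was at 34.3, 30.8 and 34.8 TPM and *Pygb* at 60.3, 61.4 and 60.1 TPM. The means were then 33.3 ± 2.15 and 60.6 ± 0.682 TPM (SD, n = 3), with no overlap.

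*Gys1*, the glycogen synthase of muscle, stood at 105.4, 116.3 and 104.3 CPM in the control libraries and at 85.8, 83.8 and 84.2 CPM in the *Phf2* KO libraries. The lowest control library was above every knockout library. Its log2 fold change was -0.36 (SE 0.050, edgeR adjusted p = 0.000691). Its gene model overlaps *Ruvbl2*, which had counts between 1628 and 2247. *Ugp2*, which makes UDP-glucose for glycogen, was at 74.2 ± 1.67 CPM in control and 82.6 ± 5.27 CPM in *Phf2* KO cells (SD, n = 3), above the control range in each knockout library but short of the threshold (edgeR adjusted p = 0.112). *Gbe1*, the branching enzyme, had a log2 fold change of -0.22 (edgeR adjusted p = 0.275).

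Phosphorylase kinase, which switches glycogen phosphorylase on, did not pass the threshold in any of its 4 tested subunits on the list. The catalytic subunit of muscle, *Phkg1*, was near the limit of the libraries, at between 0.446 and 0.894 CPM in control and between 0.267 and 0.65 CPM in *Phf2* KO cells. That of other tissues, *Phkg2*, was at 14.0 ± 0.174 and 14.3 ± 1.34 CPM (SD, n = 3). The regulatory subunits *Phka1* and *Phkb* had log2 fold changes of 0.11 and 0.04 with adjusted p of 0.505 and 0.741 from the same fit by edgeR.

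In the upper steps of glycolysis, from glucose to triose phosphate, the muscle phosphofructokinase *Pfkm*, the aldolase *Aldoa* and the isomerase *Tpi1* fell. *Pfkm* (ENSMUSG00000033065, chromosome 15, 98092589 to 98132451), the rate-setting enzyme of glycolysis in muscle, stood at 241.7, 222.9 and 205.0 CPM in the control libraries and at 183.2, 169.6 and 166.3 CPM in the *Phf2* KO libraries. The control libraries were all above them. The log2 fold change was -0.37 (SE 0.060, edgeR adjusted p = 0.00265). The platelet form *Pfkp* was at 34.8 ± 2.40 CPM in control and 36.3 ± 0.45 CPM in *Phf2* KO cells (SD, n = 3), with overlapping libraries.

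The liver form *Pfkl* stood at 112.5, 148.2 and 158.1 CPM in the control libraries and at 93.6, 120.4 and 119.3 CPM in the *Phf2* KO libraries. Each knockout library was below the control library of the same number, but control and knockout ranges overlapped, with replicate 1 the lowest in both. Its log2 fold change was -0.33 (SE 0.180), with an edgeR adjusted p of 0.433, and of 0.000919 with the replicate number as a block. *Aldoa* (ENSMUSG00000030695), the aldolase of muscle and most other cells, was at 1087, 1193 and 1211 CPM against 949, 1021 and 955 CPM. It fell without overlap, by 0.26 on the log2 scale (SE 0.046, edgeR adjusted p = 0.00415). A separate *Aldoa* row of an adjacent gene model (ENSMUSG00000114515) held between 0.361 and 1.22 CPM and had no direction that held without *Phf2* KO replicate 2.

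*Tpi1*, the triose phosphate isomerase, fell from 517.9 ± 30.9 to 443.8 ± 32.1 CPM (SD, n = 3), with a log2 fold change of -0.22 (SE 0.057, edgeR adjusted p = 0.0362). That call was lost in 4 of the 6 fits that left out a library, where the adjusted p reached 0.162. *Gpi1*, the glucose phosphate isomerase, had a log2 fold change of -0.22 with an edgeR adjusted p of 0.207, and of 0.00866 with the replicate block. The hexokinases, which trap glucose in the cell, did not pass the threshold. *Hk1*, the general form, was at 203.6 ± 8.73 and 198.6 ± 4.22 CPM, and *Hk2*, the insulin-responsive form of muscle, at 61.4 ± 3.997 and 56.1 ± 2.13 CPM (SD, n = 3, control and *Phf2* KO), with adjusted p of 0.755 and 0.244 by edgeR. The brain aldolase *Aldoc* was low, between 0.862 and 1.67 CPM in the 6 libraries.

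The lower steps, from triose phosphate to pyruvate, held the largest fall among the tested members with more than 1 CPM. *Pgam2* (ENSMUSG00000020475, chromosome 11, 5801640 to 5803733), the muscle phosphoglycerate mutase, stood at 22.1, 20.7 and 18.1 CPM in the control libraries and at 11.4, 10.9 and 9.19 CPM in the *Phf2* KO libraries. The gap between the groups was wider than the range within either. The log2 fold change was -0.95 (SE 0.110, edgeR adjusted p = 0.000179), a fall of 48.2%. Its partner *Pgam1*, the form of most tissues, was at 229.8, 283.1 and 299.5 CPM against 213.7, 265.6 and 251.9 CPM, and the 2 groups overlapped. The log2 fold change of *Pgam1* was -0.15 (SE 0.131, edgeR adjusted p = 0.632, and 0.0515 with the replicate block).

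The 3 enolases, which make phosphoenolpyruvate, had negative log2 fold changes with different spreads. *Eno3*, the muscle enolase, was at 558.0, 550.8 and 469.6 CPM in the control libraries and at 439.3, 420.5 and 418.0 CPM in the *Phf2* KO libraries. It did not overlap and had a log2 fold change of -0.30 (SE 0.059, edgeR adjusted p = 0.00982), past the threshold in 3 of the 6 fits without a library. *Eno2*, the neuronal enolase, fell from 45.9 ± 3.61 to 35.6 ± 2.79 CPM (SD, n = 3), or by 0.37 on the log2 scale (SE 0.074, edgeR adjusted p = 0.00944). That call was lost in 2 such fits, with an adjusted p of up to 0.0694. *Eno1*, the general enolase, stood at 698.0, 847.0 and 871.3 CPM in control and at 591.2, 708.6 and 652.9 CPM in *Phf2* KO cells. Its groups overlapped by 1 library of each, and its log2 fold change of -0.31 (SE 0.108) had an edgeR adjusted p of 0.203, and of 0.000929 with the replicate block.

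*Pkm*, the pyruvate kinase of muscle and proliferating cells, was at 1364, 1524 and 1588 CPM against 1168, 1300 and 1219 CPM. Again no library of one group reached the other, and the log2 fold change was -0.28 (SE 0.057, edgeR adjusted p = 0.0152). The rows do not separate its 2 splice forms. It lost the call without control replicate 2, *Phf2* KO replicate 1 or *Phf2* KO replicate 3, where the adjusted p reached 0.171. *Pgk1*, the phosphoglycerate kinase that yields the first ATP, was at 485.3 ± 55.5 and 408.0 ± 35.7 CPM (SD, n = 3), with a log2 fold change of -0.25 (edgeR adjusted p = 0.252, and 0.00182 with the replicate block).

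**Figure D2:**
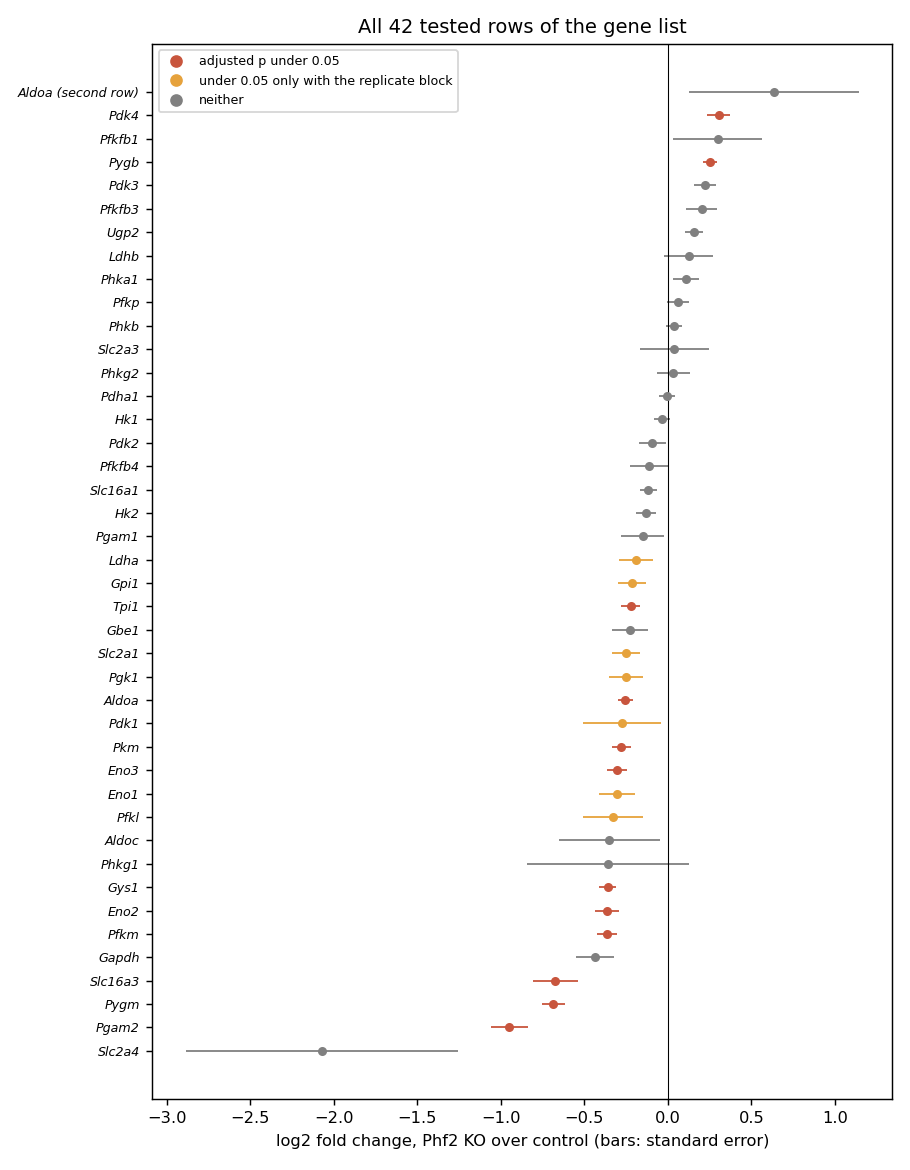
Log2 fold change of *Phf2* KO over control for the 42 tested rows, in order, with bars of 1 standard error. Red points passed an adjusted p of 0.05, orange points did so only with the replicate number as a block, and grey points did neither. The median of the rows was -0.21, and the 2 rows with the widest bars were the low-count rows of *Slc2a4* and the second *Aldoa*.

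Of the carriers and dehydrogenases of lactate, *Slc16a3* passed the threshold. *Slc16a3* (ENSMUSG00000025161, chromosome 11, 120948480 to 120960868) encodes MCT4, the lactate exporter of glycolytic muscle. It stood at 12.01, 15.3 and 14.9 CPM in the control libraries and at 7.30, 9.16 and 10.003 CPM in the *Phf2* KO libraries. No knockout library reached the control range. Its log2 fold change was -0.67 (SE 0.136, edgeR adjusted p = 0.00898), and the call was lost without control replicate 2 (adjusted p = 0.0678). *Slc16a1*, which encodes the broadly used carrier MCT1, was at 78.1 ± 2.85 and 72.0 ± 2.60 CPM (SD, n = 3), also without overlap, with a log2 fold change of -0.12 (edgeR adjusted p = 0.216). *Ldha*, the lactate dehydrogenase of muscle, was at 457.0, 530.1 and 579.3 CPM against 414.1, 487.3 and 469.0 CPM, a log2 fold change of -0.19 (edgeR adjusted p = 0.387, and 0.0165 with the replicate block). *Ldhb*, the heart form, lay between 4.65 and 5.76 CPM in the 6 libraries, with a log2 fold change of 0.12 (edgeR adjusted p = 0.73).

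Among the kinases that switch off pyruvate dehydrogenase, *Pdk4*, which rises in fasting muscle, was higher in the *Phf2* KO cells. It stood at 49.3, 42.6 and 49.7 CPM in the control libraries and at 61.4, 54.7 and 58.8 CPM in the *Phf2* KO libraries. The groups did not overlap, and the log2 fold change was 0.30 (SE 0.069, edgeR adjusted p = 0.0164), a call lost in 3 of the 6 fits without a library. *Pdk3* was at 31.6 ± 1.57 and 36.8 ± 1.73 CPM (SD, n = 3), above the control range in every knockout library and short of the threshold (edgeR adjusted p = 0.0698). *Pdk1*, a target of hypoxia-inducible factors, had a log2 fold change of -0.28 (edgeR adjusted p = 0.631, and 0.0197 with the replicate block). *Pdk2* was at 30.8 ± 2.15 and 28.8 ± 2.33 CPM. The target of these kinases, *Pdha1*, the catalytic subunit of pyruvate dehydrogenase, was at 294.6 ± 6.95 and 293.4 ± 14.8 CPM (SD, n = 3), with a log2 fold change of -0.01. The bifunctional kinases *Pfkfb1*, *Pfkfb3* and *Pfkfb4*, which set fructose 2,6-bisphosphate, the activator of phosphofructokinase, had log2 fold changes of 0.30, 0.20 and -0.11, and 0 of the 3 passed the threshold (edgeR, lowest adjusted p 0.255).

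The glucose carriers were read with regard to depth. *Slc2a4* encodes GLUT4, the carrier that insulin and contraction bring to the surface of muscle fibres. Its counts were 39, 27 and 25 in the control libraries and 0, 12 and 10 in the *Phf2* KO libraries, or 0.684, 0.464 and 0.429 CPM against 0, 0.228 and 0.148 CPM. With about 4 counts for each read pair, the highest of these values is a handful of read pairs. The groups did not overlap, the log2 fold change was -2.07 (SE 0.815) and the edgeR adjusted p was 0.173, so a difference was not detectable at this depth. The row would not have passed the filter on low counts without its control libraries. *Slc2a1*, which encodes GLUT1, the basal carrier, was at 63.0, 69.8 and 79.4 CPM against 54.5, 63.7 and 60.3 CPM, and the groups overlapped. The log2 fold change was -0.25 (SE 0.084, edgeR adjusted p = 0.121, and 0.0221 with the replicate block). *Slc2a3*, which encodes GLUT3, was between 2.23 and 2.78 CPM in the 6 libraries.

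The levels per transcript length placed *Slc2a1* at 46.9 ± 5.51 TPM and *Slc2a4* at 0.319 ± 0.084 TPM in the control libraries (SD, n = 3). *Hk1* stood at 103 ± 4.65 TPM above *Hk2* at 24.0 ± 1.57 TPM, and *Slc16a1* at 38.1 ± 1.23 TPM above *Slc16a3* at 7.61 ± 1.62 TPM. For other families the muscle form led, with *Pfkm* at 137 ± 12.1, *Pfkl* at 83.1 ± 14.2 and *Pfkp* at 17.7 ± 1.14 TPM, and with *Ldha* at 713 ± 87.0 and *Ldhb* at 8.14 ± 0.398 TPM. *Pgam2* was at 52.1 ± 4.999 TPM, below *Pgam1* at 329.9 ± 45.4 TPM. These TPM are of the reference rows, which miss reads that StringTie placed on other transcripts of the locus. In *Eno1* the reference row had 371 TPM in control cells and the locus 863 TPM, so its order to *Eno3*, at 768 TPM, depends on that choice.

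The ratio of the muscle form to a partner form was computed within each library, which removes the scaling between libraries. The partner was not always a general form, as with the heart form *Ldhb* and the brain form *Aldoc*. *Pfkm* stood in both *Pfkm*/*Pfkl* and *Pfkm*/*Pfkp*, so these pairs are not separate results. Of 13 pairs, 11 gave a ratio in every library, because *Pygl* was not tested and *Slc2a4* had a library at 0. In 5 of the 11 the *Phf2* KO libraries lay below the control libraries, in 0 above, and in 6 the groups overlapped. The 5 pairs were *Pygm*/*Pygb*, *Pgam2*/*Pgam1*, *Slc16a3*/*Slc16a1*, *Pfkm*/*Pfkp* and *Ldha*/*Ldhb*. With the authors' TPM in place of CPM, *Slc16a3*/*Slc16a1* overlapped and the other 4 did not. From CPM, the two-sided exact permutation p was 0.1 for each of the 5, which is the smallest that 3 libraries against 3 allow, and 0.22 after Benjamini-Hochberg adjustment over the 11 pairs, so the design could not place any pair past 0.05.

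*Pygm*/*Pygb* showed the largest difference. The CPM ratio was 0.823, 0.777 and 0.722 in the control libraries and 0.423, 0.368 and 0.423 in the *Phf2* KO libraries. The mean log2 ratio was lower by 0.94 in the knockout cells, from -0.37 ± 0.094 to -1.31 ± 0.115 (SD, n = 3). Both members of this pair had passed the threshold, in opposite directions. The ratio of *Pgam2* to *Pgam1* was 0.096, 0.0731 and 0.0603 in the control libraries and 0.0534, 0.0411 and 0.0365 in the *Phf2* KO libraries. Its log2 difference was -0.80, and within the same-number pairs it varied with an SD of 0.0657.

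In *Slc16a3*/*Slc16a1* the log2 difference of the CPM ratios was -0.56, with an SD of 0.00383 over the same-number pairs. The ratio was 0.149, 0.195 and 0.199 in the control libraries and 0.101, 0.132 and 0.135 in the *Phf2* KO libraries. From the authors' TPM the same ratio was 0.149, 0.207 and 0.246 in control and 0.0878, 0.159 and 0.103 in *Phf2* KO cells, where the groups overlapped, the same-number differences were -0.77, -0.38 and -1.26, and the exact permutation p was 0.2. For *Pfkm*/*Pfkp* the log2 difference was -0.43, and for *Ldha*/*Ldhb* it was -0.31, or -0.19 without *Phf2* KO replicate 1. By contrast *Pfkm*/*Pfkl* differed by -0.04 and *Eno3*/*Eno1* by 0.0035 on the log2 scale with overlapping groups, beside log2 fold changes of -0.33 for *Pfkl* and -0.31 for *Eno1*. *Hk2*/*Hk1* at -0.09, *Phka1*/*Phka2* at 0.08, *Aldoa*/*Aldoc* at 0.11 and *Phkg1*/*Phkg2* at -0.43 also overlapped. The last pair rests on the low counts of *Phkg1*. Its difference was -0.01 when *Phf2* KO replicate 2 was left out, -1.14 from TPM and -0.16 from CPM + 1, and it ran from -0.76 to -0.01 over the fits that each left out 1 library. The *Phkg1* gene model overlaps the more abundant *Sumf2*.

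**Figure D3:**
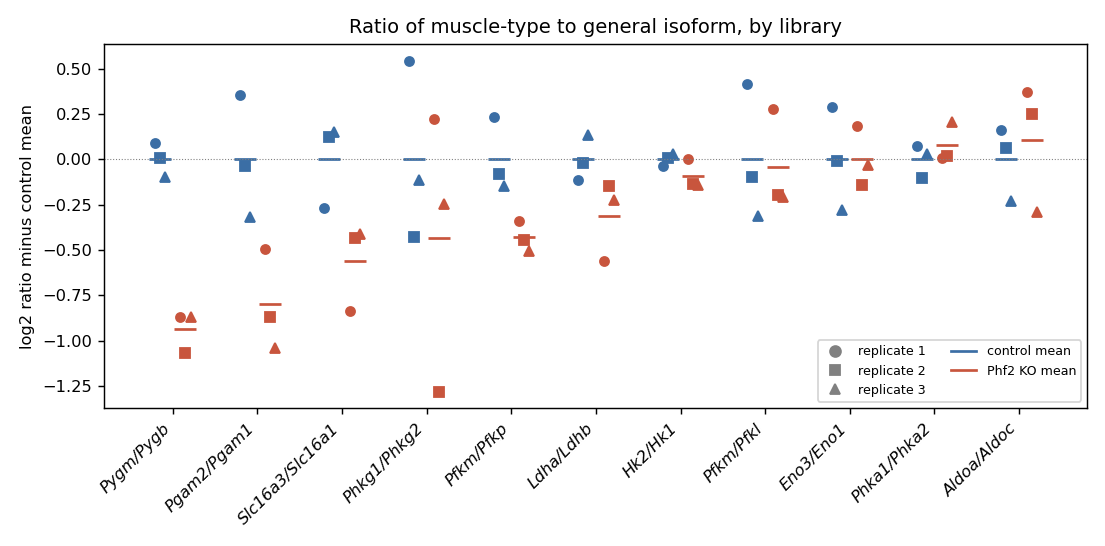
Ratio of the muscle form to a partner form of an enzyme or carrier in each library, as log2 ratio minus the control mean of that pair, for the 11 pairs with a ratio. Horizontal lines are group means. The groups are apart in the 5 pairs named in the text, with differences from -0.94 to -0.31, and overlap in the other 6.

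The replicate number ran through many of these rows. In 19 of the 42 rows replicate 1 was the lowest of 3 in both groups, beside 13.7% of all genes. These rows included *Eno1*, *Pfkl*, *Pgk1*, *Gpi1*, *Ldha*, *Pdk1*, *Slc2a1*, *Pgam1*, *Pkm*, *Tpi1* and *Slc16a3*. Of the muscle forms in the isoform pairs with a ratio, *Aldoa*, *Ldha* and *Slc16a3* were among the 19 rows. *Pygm*, *Pgam2*, *Pfkm*, *Eno3*, *Phka1*, *Phkg1* and *Hk2* were not. Control replicate 1 was the highest of the control libraries in each of these but *Hk2*, where it was the lowest. In *Pdk1*, control replicate 1 lay below the mean of the other controls by 0.62 on the log2 scale, and *Phf2* KO replicate 1 below its own partners by 0.40. Across all genes the same-number libraries deviated together, although the labels do not say what a number stands for.

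Compared within same-number pairs, 26 of the 42 rows were lower in all 3 pairs, beside 21.1% of all genes, and 7 were higher in all 3, beside 21.3%. With the replicate number as a block, 17 rows fell and 2 rose, beside 3.86% and 3.74% of all genes tested (7.6% in either direction). The additional 7 were *Pfkl*, *Eno1*, *Pgk1*, *Gpi1*, *Ldha*, *Pdk1* and *Slc2a1*. In *Ldha*, for example, the same-number differences were -0.14, -0.12 and -0.30 on the log2 scale, while the control libraries alone spanned 457.0 to 579.3 CPM. In *Pgam2* they were -0.95, -0.92 and -0.97.

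**Figure D4:**
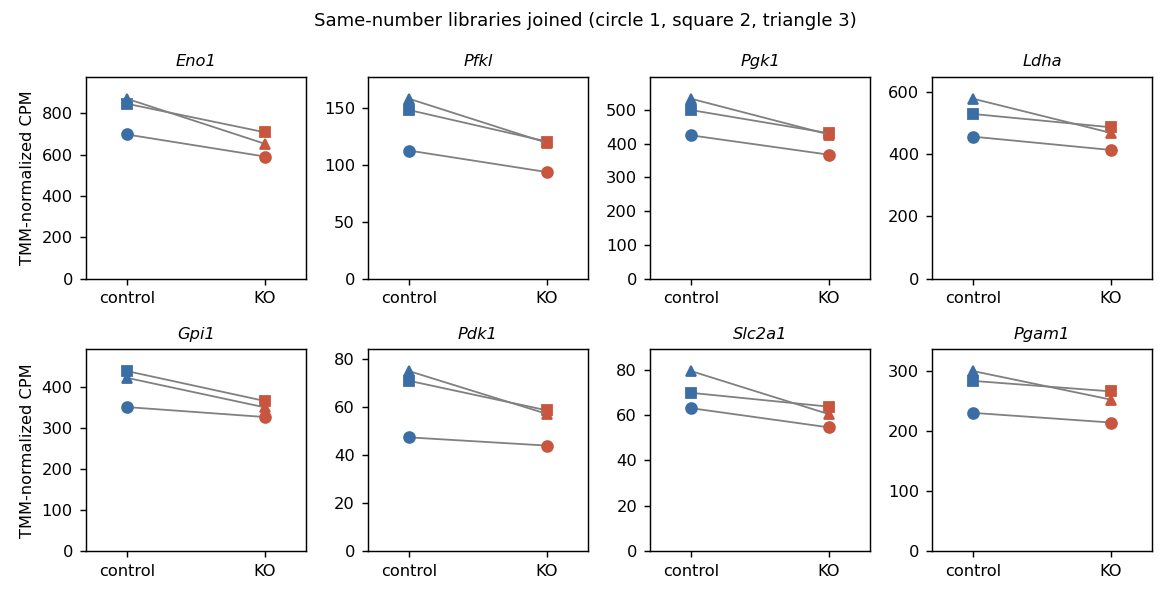
TMM-normalized CPM of 8 members in which replicate 1 was lowest in both groups, from 0, with the libraries of the same replicate number joined by a line. The 8 are *Pgam1* and the 7 members that passed the threshold only with the replicate block, chosen after their values were seen. The downward lines and the overlap of the groups in each of the 8 therefore describe that choice. Replicate 1 was lowest in both groups in 19 rows, of which *Pfkfb1* and *Ugp2* were higher in all 3 same-number pairs.

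*Gapdh*, the glyceraldehyde phosphate dehydrogenase, could not be read from its own row. That row held 39.0, 50.2 and 45.1 CPM in the control libraries and 37.4, 33.1 and 28.7 CPM in the *Phf2* KO libraries, and its 2 groups did not overlap. Transcripts of 93 other genes, 89 of them pseudogenes, matched *Gapdh* over at least 200 bases with at least 95% identity. Between 97.7% and 98.3% of the counts of *Gapdh* and these copies stood on the copies. For example, the processed pseudogene *Gm13394*, named here after its values were seen, held between 31400 and 41625 counts. With the copies added, a step chosen after seeing the data, the level was 1982, 2211.5 and 2144 CPM in control and 1780, 1847 and 1723 CPM in *Phf2* KO cells. The groups did not overlap, and the summed log2 fold change was -0.24 (SE 0.043, edgeR adjusted p = 0.0033), beside -0.44 (adjusted p = 0.056) for the row alone.

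*Eno1* shared its reads in the same way with *Eno1b* and *Gm4735*, which were also named after their values were seen. Between 45.6% and 46.7% of the summed counts were on copies. The sum had a log2 fold change of -0.30, with an edgeR adjusted p of 0.264, and of 0.00114 with the replicate block. For *Pgam1*, *Pgk1*, *Pkm* and the remaining members the copies held less than 5% of the counts. *Pgam1* passed the threshold once its copies were added in the fit with the block (edgeR adjusted p = 0.048).

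**Figure D5:**
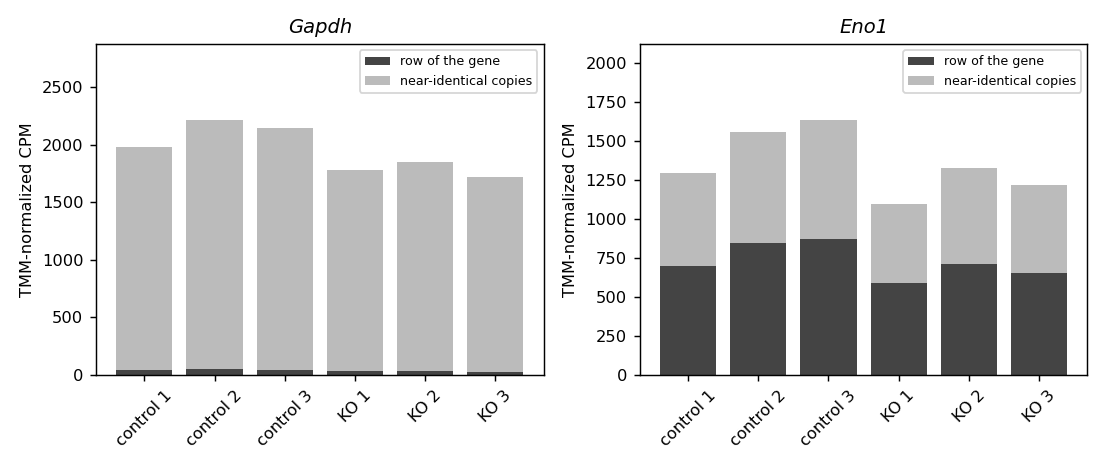
TMM-normalized CPM of *Gapdh* and *Eno1* in each library, split into the row of the gene (dark) and the rows of near-identical copies (light). The sum for *Gapdh* lies between 1982 and 2211.5 CPM in control and between 1723 and 1847 CPM in *Phf2* KO libraries, nearly all of it on copies.

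Other genes of the pathway, a list of 58 with the remaining carriers, phosphoglucomutases, glycogen regulators and pyruvate enzymes, were counted in the same fit. Of 42 tested, 5 fell and 0 rose (11.9% called, beside 6.48% of all genes, of which 3.26% fell), and the median over the 42 was -0.05 on the log2 scale (0 rose by DESeq2 and exactTest too). *Slc2a10*, which encodes GLUT10, was at 1.51, 1.58 and 1.55 CPM against 0.553, 0.704 and 0.827 CPM, a log2 fold change of -1.15 (edgeR adjusted p = 0.0343) that was lost whenever a library was left out. *Pgm5*, a relative of phosphoglucomutase that sits at cell adhesions of muscle, fell by 0.81, and *Slc2a6*, which encodes a carrier of lysosomes, by 0.74 on the log2 scale. *Pcx*, the pyruvate carboxylase, fell by 0.44. *Pgm1*, the phosphoglucomutase that links glycogen and glycolysis, stood at 99.7, 105.9 and 108.0 CPM in control and at 81.3, 86.2 and 85.9 CPM in *Phf2* KO cells, without overlap, and fell by 0.31 on the log2 scale (SE 0.048, edgeR adjusted p = 0.00161).

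Regulators of glucose uptake and use changed in both directions. Of 25 listed, 23 were tested, and 3 fell and 3 rose (26.1% called, beside 6.48% of all genes). *Prkag3*, the AMPK subunit of glycolytic muscle, was at 43.2, 39.7 and 33.4 CPM against 25.1, 21.3 and 21.01 CPM, with a log2 fold change of -0.79 (SE 0.0997, edgeR adjusted p = 0.00059). *Sik1*, a kinase of the AMPK family, fell by 0.39, and *Akt2*, the insulin-signalling kinase of muscle, by 0.22 on the log2 scale. *Txnip*, which lowers glucose uptake and responds to glucose, rose from 117.9, 119.6 and 116.7 CPM to 155.0, 134.1 and 141.8 CPM, a log2 fold change of 0.28 (SE 0.052, edgeR adjusted p = 0.0049). *Mlxip*, which encodes MondoA, the glucose-sensing factor upstream of *Txnip*, rose by 0.24. That call was kept in 4 of the 6 fits without a library, with an edgeR adjusted p of up to 0.0876. The remaining regulator that rose was outside the 5 largest changes and is not named. The median over the list was -0.02.

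Of 22 targets of hypoxia-inducible factors outside glycolysis, 21 were found by symbol and tested. *Higd1a*, a mitochondrial protein, fell by 0.38 (edgeR adjusted p = 0.0154), and *Lox*, which crosslinks collagen, rose by 0.28 on the log2 scale (edgeR adjusted p = 0.00187). The median over the 21 was -0.10, and the other 19 did not pass the threshold (9.52% called, beside 6.48% of all genes).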

How the data were processed

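Polyadenylated RNA of the 6 C2C12 libraries was sequenced as paired reads of 150 bp. HISAT2 with mm10 and then StringTie were run by the authors, which gave an estimated count per gene. The submitters' notes give no versions, and the annotation behind the table is not given in the sources used here. The deposited count matrix holds these estimated counts as whole numbers without normalization, at a median of 74.984 to 74.988 covered bases per count, so they are not tallies of reads. Each library also has a deposited table of coverage and of TPM, a signal scaled by the authors over reference and assembled transcripts together. The rows of reference genes were used, and where named the sum over the locus. The unit of the counts was derived from the coverage deposited by the authors.

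In edgeR 4.0.16 (R 4.3.3), 17310 genes passed filterByExpr with a minimum count of 10. After TMM scaling they entered a robust quasi-likelihood test over all 6 libraries without a covariate. P-values were adjusted by Benjamini-Hochberg over these genes, the threshold was 0.05, and an adjusted p in the text comes from here where no other fit is given. The prior count for log2 fold changes was 0.125. The isoform ratios were tested by exact permutation, two-sided. The script was tested on simulated counts.

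The members and lists were chosen with earlier results of these data known. Named were *Phf2*, every member, both genes of every isoform pair and, of each other list, at most the 5 genes past the threshold with the largest change. Counts of 2 or fewer markers were named as well.

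Same-number libraries deviated together across 10923 genes with at least 5 CPM on average, with correlations across genes of 0.183, 0.345 and 0.234, and of at most 0.0899 between different numbers. Each library was taken as its deviation from the group mean, and such deviations cancel within a group. Positive correlations between same numbers therefore pull those between different numbers down, and the contrast is partly built in. The pairing thus comes from the data, and the block was an alternative.

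Copies were found with blastn 2.17.0 against GENCODE M21 transcripts, and gene positions are from GENCODE M21 (GRCm38), matched by identifier without its version. Promoter windows are from RefSeq (GRCm38.p6). Alternatives were exactTest, DESeq2 1.42.0, its size factors, library size alone, other filters, counts divided by 4, limma 3.58.1 on log2(TPM + 1) and log2(TPM + 0.1), the block and leaving out each library. Adding the copies was chosen after seeing the data.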

Additional observations from a re-analysis of the deposited data

How the results depend on the processing

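Each library was a well of a single experiment, the counts are estimates, and shared sequence limits *Gapdh* and *Eno1*, so small differences are least certain. The number of members that fell was 10 and lay between 5 and 16 with a library left out, and the number that rose was 2 and lay between 1 and 2. With the replicate block 17 members fell, beside 3.86% of all genes, and with DESeq2 13 fell, beside 4.77%. With the block and the copies added 19 fell, and the share of all genes was not counted in that fit. The block left 2 members higher and added 1 myotube marker and 1 hypoxia target to those lower, and the counts of the other pathway genes and the glucose regulators stayed as they were. With limma on log2(TPM + 1) and log2(TPM + 0.1), 3 and 4 members fell and 0 rose, where 0.508% and 0.578% of all genes fell. These fits gave 2 lower among the other pathway genes, 1 lower and 0 higher among the glucose regulators, and 0 in both directions among the hypoxia targets. The glucose regulators that rose numbered between 1 and 3 with a library left out, and the hypoxia targets that fell between 0 and 2, with 2 under DESeq2 and 2 with the block. The leave-one-out fits also had fewer samples, and the causes of these shifts were not tested.

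Ratios near 0 changed sign. On the log2 scale, *Aldoa*/*Aldoc* was -0.0697 from TPM, -0.0583 from CPM + 1 and between -0.0220 and 0.31 with a library left out. *Phka1*/*Phka2* was -0.00343 from TPM. Without single libraries *Pfkm*/*Pfkl* lay between -0.20 and 0.17 and *Eno3*/*Eno1* between -0.14 and 0.15. *Ldha*/*Ldhb* lay between -0.39 and -0.19 and *Phkg1*/*Phkg2* between -0.76 and -0.01, with -1.14 from TPM and -0.16 from CPM + 1, and *Slc16a3*/*Slc16a1* was -0.80 from TPM. Within same-number pairs the ratios keep their differences, and the smallest exact permutation p is 0.25. Of single genes, log2 fold changes of 5 rows far from the threshold changed sign. The second *Aldoa* row lay between -0.00514 and 0.89, *Phkg2* between -0.0172 and 0.11, *Slc2a3* between -0.0432 and 0.11 and *Pdha1* between -0.0477 and 0.0204 with a library left out. With limma on log2(TPM + 1) and log2(TPM + 0.1), *Phkg2* was at -0.0127 and -0.0133, *Slc2a3* at -0.0341 and -0.14, *Pfkfb4* at 0.0714 and 0.0860, and *Pdha1* at 0.00663 and 0.00665. Of the remaining comparisons of single genes, 943 kept their direction and their side of the threshold, 81 dropped below it and 30 passed it. With exactTest, 11 members fell, beside 3.41% of all genes. By that test *Tpi1* was short of the threshold (adjusted p = 0.0687), and *Gapdh* and *Eno1* passed it (adjusted p = 0.00592 and 0.041). *Pgam2*, *Pygm* and the main *Aldoa* row passed the threshold under every alternative run.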
